A study of Arabidopsis thaliana with 35 samples.

Results

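The group of genes described here fell in water-treated Arabidopsis thaliana shoots between 0 and 10 days after drought (DAD) and rose again by 13 DAD, when the means of ethanol-treated shoots were within 1 log2 of theirs. The 46 genes were chosen by their own values in the deposited normalized counts, out of 27417 genes in the table. For each gene the mean of the 5 libraries of a group was taken on the log2(mean + 1) scale. A gene was kept if it fell by at least 1 log2 between 0 and 10 DAD in water-treated plants, rose by at least 1 log2 between 10 and 13 DAD, averaged at least 50 normalized counts at 0 DAD in water-treated plants, and differed by less than 1 log2 between the 2 treatments at 13 DAD. Of the 27417 genes, 11646 had the required level at 0 DAD. The dip in water-treated plants and the levels of both treatments at 13 DAD are therefore given as a description, with no test.

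The shoots were of the Col-0 ecotype, and the labels name no transgene or mutation in any group. The labels state that plants were grown on MS medium for 9 days and in ceramic granular soil for 5 days. A pretreatment of 3 days with either 10 mM ethanol or water followed, watering was stopped, and shoots were taken at 0, 10 and 13 DAD. Shoots of 1 further group were taken before the pretreatment. Each of the 7 groups had 5 libraries, which the study's methods call biological replicates, without saying whether they came from separate pots. Total counts ranged from 3589540 to 13440389 per library. All 7 leaf and shoot marker genes had over 10 normalized counts in every library, and their summed counts were 11304 to 409263 per library. Of 10 root markers, 6 stayed under 10 in every library, 2 were over 10 in every library, and the summed counts of all 10 were 82.0 to 3638 per library. Of the 1610 member values, 23 rested on at most 10 raw counts, and the lowest on 2.

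Drying soil slows leaf growth, and genes of growth, such as those that build walls, make ribosomes and fold new proteins, usually fall with it. Expansins act in walls that extend, and the members EXLA1 and EXLA2 are annotated as expansin-like. Lipid transfer proteins and arabinogalactan proteins lie in the wall or at the cell surface, and ferritins store iron in plastids. Other genes here, such as alternative oxidase and the zinc finger regulator RHL41 (also called ZAT12), are known for rising quickly under several stresses. The 46 members were sorted by their annotated products into 11 genes of the cell wall and surface, 7 of iron, redox and detoxification, 4 chaperones and genes of protein turnover, 14 of translation, RNA and chromatin, 6 calcium sensors and regulators of transcription, and 4 others. They lay on all 5 chromosomes, with 7 to 11 on each. The groups by role were made with the members known.

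Across the 46 members, the difference in level between 10 and 0 DAD in water-treated plants had a median of -1.29 log2 (range, -2.68 to -1.005), against -0.03 among all genes of the required level. The level at 13 DAD was then higher than at 10 DAD by a median of 1.53 log2 (range, 1.01 to 3.596), against a median difference of -0.07 among all those genes. All 5 libraries at 10 DAD lay below all 5 at 0 DAD for 40 members and below all 5 at 13 DAD for 38, and 34 members had both, which are values that the rule selected on. Of all 11646 genes of the required level, 21.3% lay below those at 0 DAD, 27.4% below those at 13 DAD and 3.11% below both. The members took a median of 0.336% of all counts in water-treated plants at 0 DAD, 0.130% at 10 DAD and 0.384% at 13 DAD. In ethanol-treated plants the medians were 0.319%, 0.0992% and 0.296% at these times. The lipid transfer protein gene LP1 weighs heavily in these shares. Its mean in water-treated plants at 0 DAD was 13204 normalized counts, against a median of 140 over the members. The heatmap of the members shows the dip as a blue band through both treatments at 10 DAD.

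**Figure D1:**
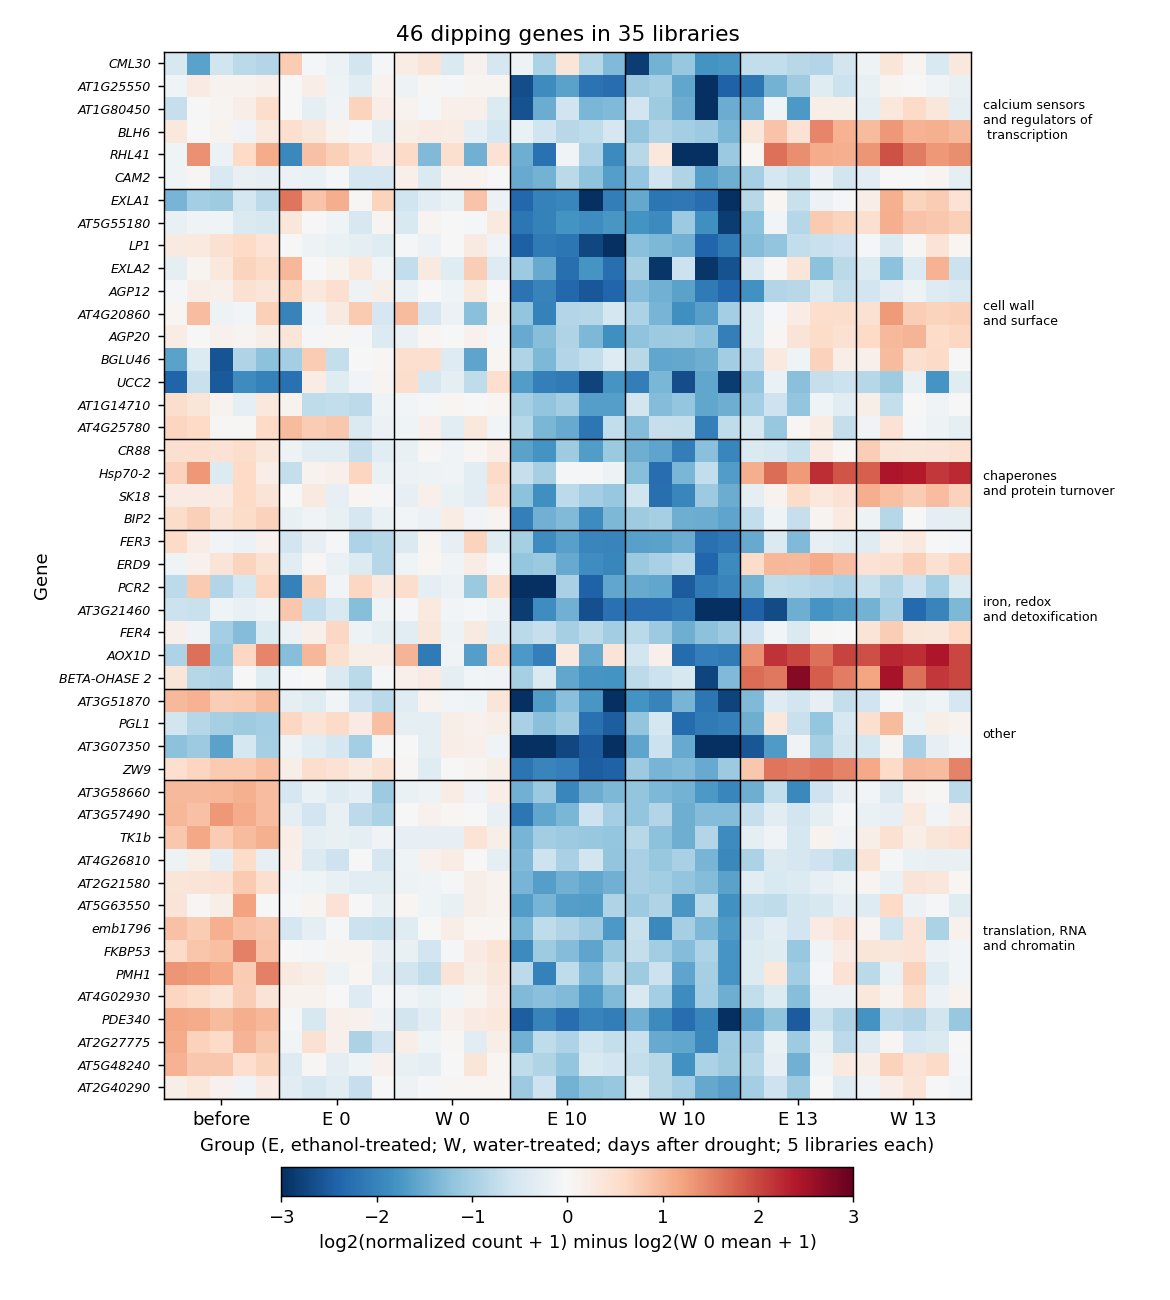
Normalized counts of the 46 members (rows, grouped by role and ordered by the depth of the dip) in 35 libraries (columns, 5 per group), as log2(normalized count + 1) minus the log2(mean + 1) of water-treated plants at 0 DAD, with blue lower and red higher. Both the ethanol-treated (E 10) and the water-treated (W 10) columns are blue in nearly all rows, and 40 members have every W 10 library below every W 0 library.

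Near the thresholds, the choice of members rested on small differences. AT2G40290, a subunit of translation initiation factor eIF2, fell by 1.005 log2 and was kept, whereas dNK, a deoxynucleoside kinase gene, fell by 0.998 log2 and was not. AT4G25780 was kept with a rise of 1.012 log2, and AT2G45220 was left out at 0.998 log2. AT4G26810 had a mean of 54.1 normalized counts at 0 DAD, and the nearest gene below the required level, AT2G31945, had 48.2. EXLA1 differed by -0.948 log2 between the treatments (ethanol minus water) at 13 DAD and was kept, and GPAT3 was left out at -1.006 log2. With any 1 of the 20 libraries used by the rule left out, 24 of the 46 members stayed in the group each time. The condition on ethanol-treated plants at 13 DAD removed 43 further genes with the same dip, of which 41 were lower in ethanol- than in water-treated plants at 13 DAD and 2 were higher. The rise was required in water-treated plants only.

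Neither the ethanol-treated plants at 10 DAD nor those at 0 DAD were used by the rule, and their comparison tests whether the fall was also seen after the ethanol pretreatment. All 46 members had a log2 fold change below 0 at 10 DAD against 0 DAD in ethanol-treated plants, with a median of -1.23, against 0.01 over all 16918 genes tested. With edgeR (adjusted p under 0.1 and a log2 fold change of -1 or less), 30 of the 46 members were called lower at 10 DAD, or 65.2%. Of all genes tested, 11.8% were called lower in this comparison. A further 12 members passed the adjusted p with a smaller fall, and 4 did not pass it. No member was called higher, by edgeR or by DESeq2, against 5.74% of all genes tested, and no member had a log2 fold change above 0. The 5 libraries at 10 DAD lay below the 5 at 0 DAD without overlap for 32 members, or 69.6%, against 17.4% of all genes tested. Of the 30 members called, 25 were called in every fit with 1 library left out. The exceptions were RHL41, and 4 genes with falls close to 1 log2. Of these 4, CAM2 was lost in 6 of 10 fits (without replicate 1, 2 or 3 at 0 DAD or replicate 1, 2 or 5 at 10 DAD), at -0.99 to -0.91. TK1b was lost without replicate 1 of either time (-0.95 and -0.97), PMH1 without replicate 2 at 10 DAD (-0.94), and CR88 without replicate 2 or 4 at 10 DAD (-0.98 and -0.99). Another 4 members were called in some of these fits only, namely BETA-OHASE 2 (without replicate 3 or 4 at 0 DAD or 1 or 2 at 10 DAD, at -1.30 to -1.01), AT3G58660 (without replicate 5 at 0 DAD or 2 at 10 DAD, at -1.09 and -1.07), AT4G20860 (without replicate 1 at 0 DAD, at -1.19) and FER4 (without replicate 5 at 0 DAD, at -1.01).

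Many other genes fell at this time. In the water-treated plants, 1196 genes of the required level fell by at least 1 log2 by 10 DAD and did not rise by 1 log2 by 13 DAD. Of the 1190 of these tested in ethanol-treated plants, 1003 were called lower at 10 DAD, or 84.3%, with a median log2 fold change of -1.50. Of the 42 genes tested that dipped and recovered in water-treated plants but were left out by the condition at 13 DAD, 35 were called lower, or 83.3%, with a median of -1.71. The share of members called lower, 65.2%, was below both. Leaf markers also moved at this time, since the summed normalized counts of the 7 leaf and shoot marker genes were 99786 to 171139 in the 5 ethanol-treated libraries at 10 DAD, against 247934 to 382206 at 0 DAD, without overlap. The summed counts of the 10 root markers were 344 to 522 at 10 DAD and 619 to 1455 at 0 DAD. The part of these shifts in the members' falls was not tested. In shoots sampled whole, fewer cells of a type and less RNA per cell cannot be told apart.

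**Figure D2:**
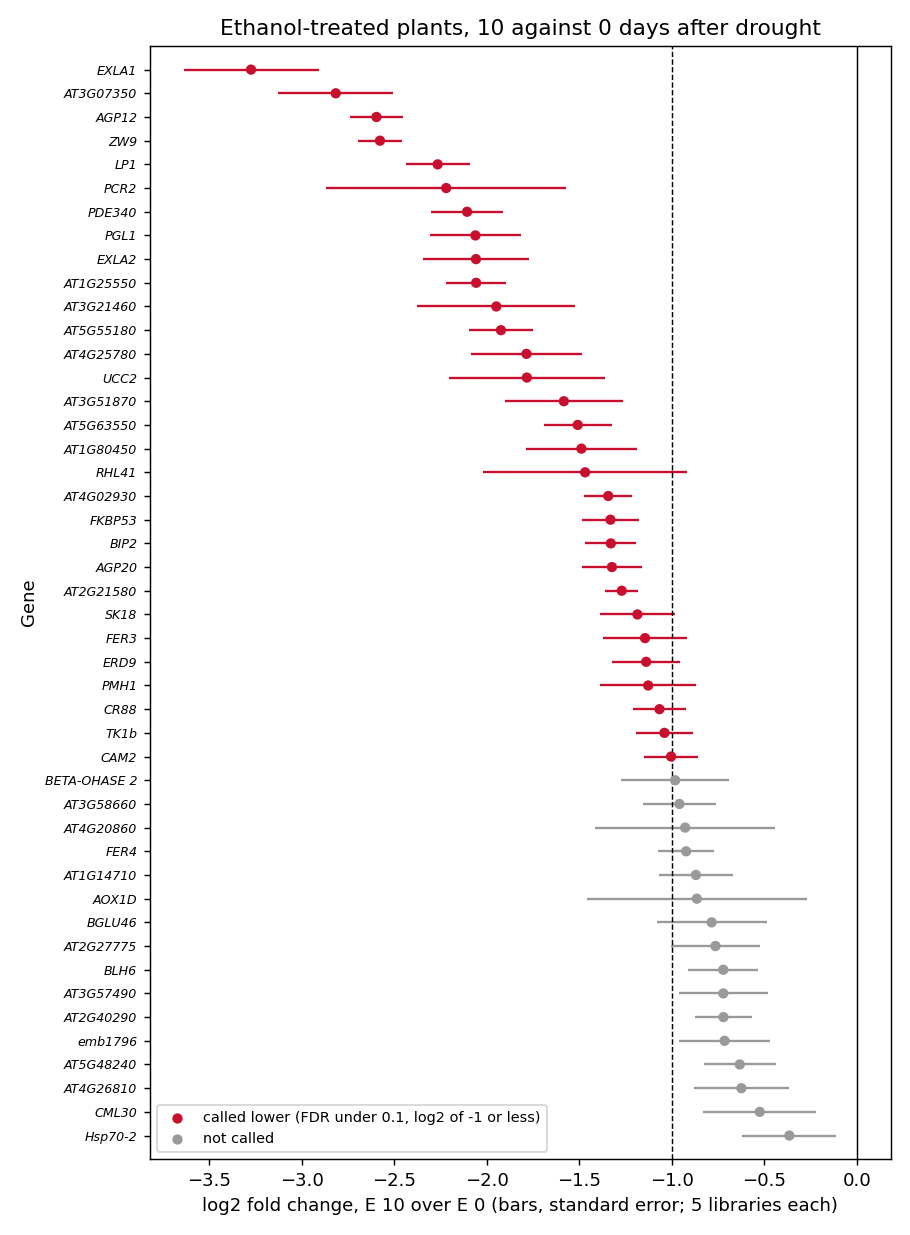
Log2 fold change of each member at 10 DAD over 0 DAD in ethanol-treated plants (points) with its standard error (bars), from edgeR on 5 libraries against 5, with called members in red and the others in grey. All 46 points lie below 0, the dashed line marks -1, and the members run from EXLA1 at -3.28 to Hsp70-2 at -0.37.

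The genes of the cell wall and surface included EXLA1, the member with the largest fall in ethanol-treated plants. Of these 11 members, 8 were called lower at 10 DAD in ethanol-treated plants, and the median log2 fold change of the 11 was -1.79. EXLA1, which encodes an expansin-like protein (chr3:16896166-16897308, + strand in TAIR10.1), had 36.1, 46.01, 47.9, 13.7 and 44.3 normalized counts in the ethanol-treated libraries at 10 DAD, against 578, 342, 406, 195 and 301 at 0 DAD. The highest value at 10 DAD was below the lowest at 0 DAD, and the log2 fold change was -3.28 ± 0.37 (SE), adjusted p = 5.68e-05 in edgeR. In water-treated plants EXLA1 averaged 189 ± 88.2 (SD, n = 5) at 0 DAD, 40.6 ± 16.7 at 10 DAD and 298 ± 68.5 at 13 DAD. The mean at 0 DAD included 1 library with 344, while the other 4 lay between 124 and 166.

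EXLA2, a gene of the same expansin-like family, had lower counts, with 25.1, 18.6, 10.5, 15.4 and 10.5 normalized counts at 10 DAD and 109, 54.1, 58.7, 67.9 and 51.8 at 0 DAD in ethanol-treated plants (log2 fold change, -2.06 ± 0.29 (SE); edgeR, adjusted p = 5.34e-06). In water-treated plants its values overlapped between all 3 times, ranging over 32.02 to 91.4 at 0 DAD, 6.29 to 34.4 at 10 DAD and 22.7 to 113 at 13 DAD. At 13 DAD, 1 library had 113 and the other 4 had 22.7 to 40.9.

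LP1, which encodes lipid transfer protein 1, had the highest normalized counts of the members, which are not scaled by gene length. It had 2423, 3021, 2914, 1997 and 1434 normalized counts at 10 DAD in ethanol-treated plants, against 13039.5, 11903, 11429, 10758 and 10195 at 0 DAD. The groups were far apart, with a log2 fold change of -2.27 ± 0.17 (SE) (adjusted p = 4.69e-08, edgeR). In water-treated plants LP1 ranged over 11686 to 15985 at 0 DAD, 2531 to 5528 at 10 DAD and 9789 to 17405 at 13 DAD, so that the 13 DAD values spanned those at 0 DAD. AGP12, an arabinogalactan peptide of the cell surface, had 472, 546, 422, 373 and 419 at 10 DAD and 3437, 2717, 3078, 1949 and 2464 at 0 DAD in ethanol-treated plants, which did not overlap (log2 fold change, -2.60 ± 0.14 (SE); edgeR, adjusted p = 1.43e-10). The call for its relative AGP20 rested on a smaller log2 fold change of -1.32, and its means in water-treated plants were 281 at 0 DAD, 114 at 10 DAD and 479 at 13 DAD.

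AT5G55180, annotated as a glycosyl hydrolase of family 17, the family of plant beta-1,3-glucanases, had 33.1, 36.4, 43.2, 41.01 and 44.3 normalized counts at 10 DAD and 193, 152, 139, 108 and 159.7 at 0 DAD in ethanol-treated plants. All 5 values at 10 DAD lay under 45, and the log2 fold change was -1.92 ± 0.17 (SE) (adjusted p = 1.05e-08, edgeR). AT4G25780, of the CAP family of secreted cysteine-rich proteins, and UCC2, a blue copper protein of the uclacyanin type, were also called lower at -1.79 and -1.78. The libraries of UCC2 overlapped, since 1 library at 0 DAD had 35.2 and the other 4 had 132 to 199.6. The 3 wall and surface members not called were AT4G20860, AT1G14710 and BGLU46, with log2 fold changes between -0.93 and -0.79.

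**Figure D3:**
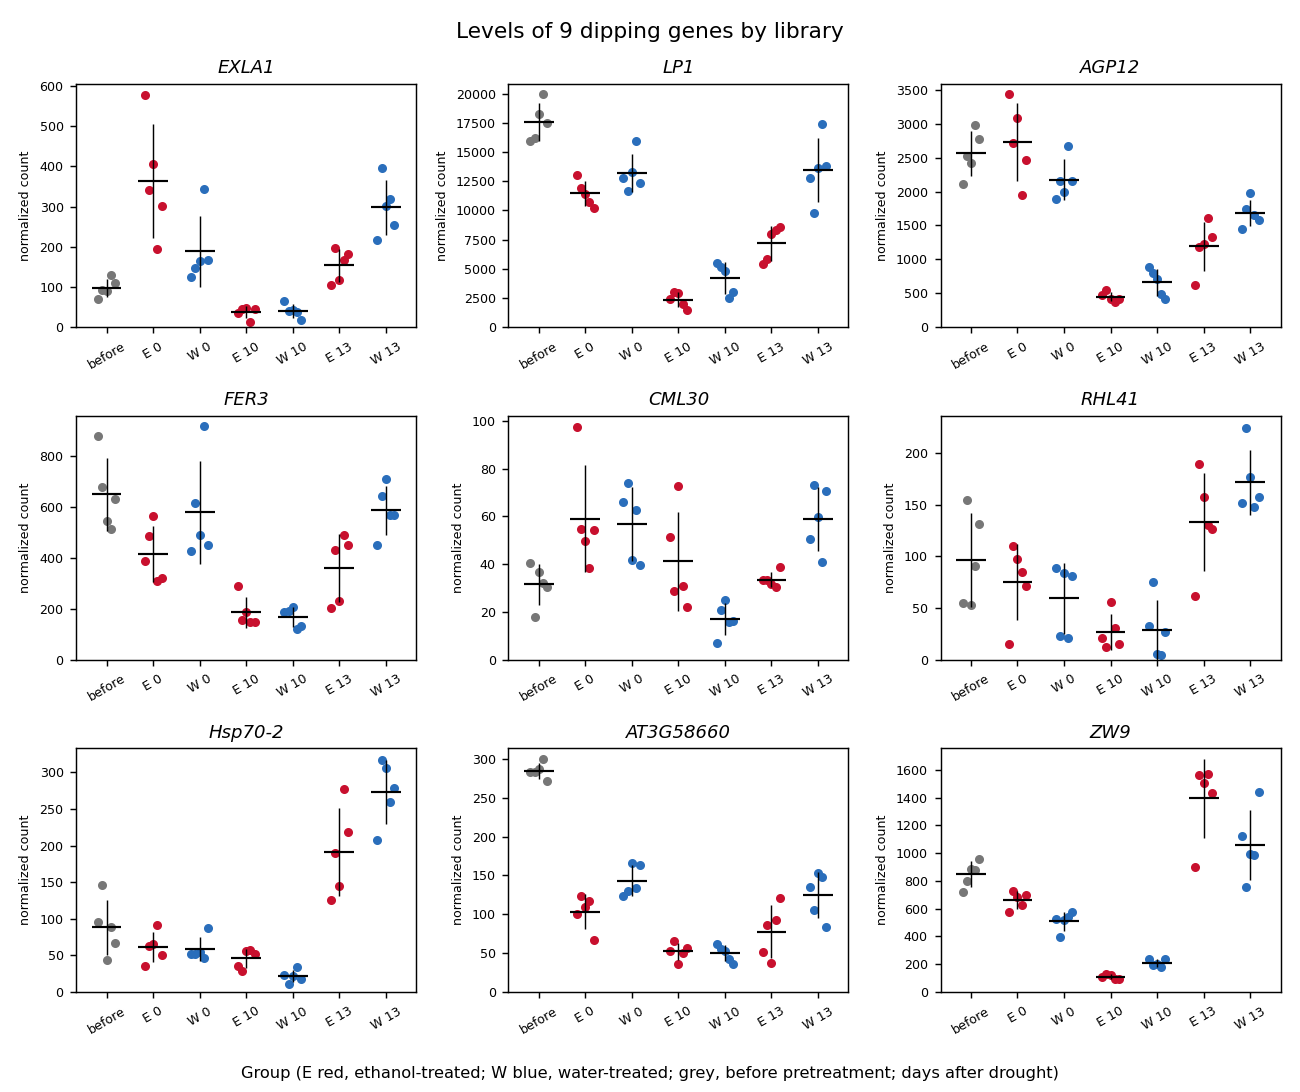
Normalized counts of 9 members in each library (points; red, ethanol-treated; blue, water-treated; grey, before the pretreatment), with the mean of 5 libraries (horizontal bar) and its SD (vertical bar), on linear axes that start at 0. EXLA1, LP1, AGP12 and ZW9 show no overlap between the ethanol-treated libraries at 10 and 0 DAD, whereas CML30, RHL41 and Hsp70-2 overlap.

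Among the 7 genes of iron, redox and detoxification, 4 were called lower at 10 DAD in ethanol-treated plants and the median log2 fold change was -1.14. Both ferritin members dipped. FER3 had 290.0, 157, 187, 149 and 147 normalized counts at 10 DAD and 388, 486, 564, 307 and 322 at 0 DAD in ethanol-treated plants (log2 fold change, -1.15 ± 0.23 (SE); edgeR, adjusted p = 0.00138). Without the library with 290.0, the other values at 10 DAD were 147 to 187. FER4 had 205, 222, 178, 203 and 174 at 10 DAD and 318, 401, 549, 323 and 291 at 0 DAD, again without overlap, and its log2 fold change of -0.92 ± 0.15 (SE) (adjusted p = 5.46e-05, edgeR) was short of -1. In water-treated plants FER3 averaged 579 ± 202 (SD, n = 5) at 0 DAD, 167 ± 38.2 at 10 DAD and 587 ± 96.2 at 13 DAD, and FER4 averaged 358 ± 78.7, 164 ± 27.1 and 504 ± 63.1 at these times.

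The sequence upstream of FER3 is shown because it holds the CGCG box, the G-box and the ABRE core, which are counted over all members further on. The 250 bases before the annotated start are printed from the TAIR10.1 assembly with RefSeq's annotation, 5′ to 3′ on the gene's strand, with matches to these motifs (CGCGT for the CGCG box, CACGTG for the G-box and ACGTGT for the ABRE core, the core of the abscisic acid response element) in capitals. An evening element and a TATA box, also counted further on, are not marked. The motifs were searched on both strands.
FER3 (chr3:20816036-20816285, - strand): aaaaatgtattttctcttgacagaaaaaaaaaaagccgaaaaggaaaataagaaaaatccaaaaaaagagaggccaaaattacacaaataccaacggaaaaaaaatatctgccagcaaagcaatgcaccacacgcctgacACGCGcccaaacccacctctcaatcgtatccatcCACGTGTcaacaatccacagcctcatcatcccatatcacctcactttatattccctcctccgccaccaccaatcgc
In FER3, a CGCG box on the reverse strand comes first, beginning at -110, and a G-box that overlaps an ABRE core follows at -76. FER4 shares 118 bp of its gene with AT2G40290 on the same strand, and reads in that stretch could be counted for both genes. These 2 members are therefore not independent.

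AT3G21460, a glutaredoxin, was called lower at 10 DAD in ethanol-treated plants with 24.1, 48.97, 66.2, 28.2 and 37.3 normalized counts, against 315, 108, 131, 73.4 and 166 at 0 DAD (log2 fold change, -1.95 ± 0.43 (SE); edgeR, adjusted p = 0.00438). The groups did not overlap. It was the member furthest below its starting level at 13 DAD, at 181 ± 22.7 (SD, n = 5) at 0 DAD, 27.3 ± 14.1 at 10 DAD and 61.5 ± 21.7 at 13 DAD in water-treated plants. PCR2, a membrane protein of metal tolerance, was called lower at -2.22 ± 0.65 (SE) (adjusted p = 0.0222, edgeR) with overlapping libraries, and ERD9, a glutathione S-transferase, at -1.14 ± 0.18 (SE) (adjusted p = 4.22e-05) without overlap. ERD9 shares 71 bp with GSTU18 on the same strand. AOX1D, an alternative oxidase of the mitochondrial respiratory chain, was not called (-0.87 ± 0.60 (SE); edgeR, adjusted p = 0.275), and its libraries were widely spread. In water-treated plants AOX1D had 114, 11.9, 51.4, 16.9 and 82.7 normalized counts at 0 DAD, 37.5, 62.02, 10.4, 12.6 and 12.1 at 10 DAD and 214, 269, 259.9, 303 and 226 at 13 DAD. The first 2 of these times overlapped, and all 5 values at 13 DAD were above both. BETA-OHASE 2, a beta-carotene hydroxylase of the xanthophyll pathway, was short of the threshold (-0.98) and was also highest late, with means in water-treated plants of 55.3, 27.03 and 216 at the 3 times.

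Of the 4 chaperones and genes of protein turnover, 3 were called lower at 10 DAD in ethanol-treated plants. CR88, the Hsp90 of the chloroplast, had 164, 143, 237, 154 and 229 normalized counts at 10 DAD and 448, 397, 402, 308 and 389.6 at 0 DAD (log2 fold change, -1.07 ± 0.14 (SE); edgeR, adjusted p = 3.07e-06). The groups did not overlap, and the size of the fall was close to the threshold. BIP2, an Hsp70 of the endoplasmic reticulum, was called lower at -1.33 ± 0.14 (SE) (adjusted p = 8.32e-08, edgeR). BIP1 is 97.2% identical to BIP2 over 2122 bp, so reads of the pair could be split, and the BIP2 value is uncertain. SK18, a SKP1-like subunit of ubiquitin ligases, was called lower at -1.19 ± 0.20 (SE) (adjusted p = 6.14e-05, edgeR).

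Hsp70-2 was the member with the smallest change in ethanol-treated plants. It had 36.1, 28.9, 56.6, 57.2 and 52.5 normalized counts at 10 DAD and 35.2, 63.4, 64.9, 91.8 and 50.99 at 0 DAD, a log2 fold change of -0.37 ± 0.26 (SE) (adjusted p = 0.257, edgeR). These groups overlapped. In water-treated plants it had 51.5, 52.5, 54.7, 46.5 and 87.5 at 0 DAD, 23.4, 11.1, 21.9, 34.6 and 17.5 at 10 DAD and 207, 317, 307, 259 and 279 at 13 DAD. Here the 3 times did not overlap, and the level at 13 DAD was 2.21 log2 above that at 0 DAD, the largest such difference among the members.

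Of the 6 calcium sensors and regulators of transcription, 4 were called lower at 10 DAD in ethanol-treated plants. AT1G25550, a myb-like transcription factor, was called lower with 57.2, 98.7, 121, 77.8 and 74.7 normalized counts, against 369.7, 421, 333, 288 and 397 at 0 DAD (log2 fold change, -2.06 ± 0.16 (SE); edgeR, adjusted p = 3.57e-09). No library overlapped. AT1G80450, a VQ motif protein, and CAM2, a calmodulin, were called lower at -1.49 ± 0.30 (SE) and -1.004 ± 0.15 (SE). CAM2 was just past the threshold. The calcium-binding protein CML30 was not called. It had 51.2, 28.9, 72.9, 30.8 and 22.2 at 10 DAD and 97.5, 54.9, 49.8, 38.5 and 54.3 at 0 DAD in ethanol-treated plants, which overlapped (-0.53 ± 0.31 (SE); edgeR, adjusted p = 0.176), against 7.03, 20.7, 25.1, 15.7 and 16.2 at 10 DAD and 66.1, 74.005, 41.6, 62.6 and 39.4 at 0 DAD in water-treated plants, which did not. CML30 lies inside AT2G15690 on the other strand, and the counting used strand.

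RHL41, which encodes a C2H2 zinc finger regulator of responses to high light, cold and oxidative stress, was called lower at 10 DAD in ethanol-treated plants at -1.47 ± 0.55 (SE) (adjusted p = 0.0534, edgeR), with overlapping libraries. It had 21.1, 11.9, 55.6, 30.8 and 15.2 normalized counts at 10 DAD and 14.8, 109.8, 97.8, 84.4 and 71.1 at 0 DAD. The call was lost without any 1 of 4 libraries, replicates 1, 2 and 5 at 10 DAD and replicate 2 at 0 DAD, and the log2 fold change without 1 library ranged from -1.91 to -1.26. In water-treated plants RHL41 had 89.1, 23.2, 83.8, 21.1 and 80.8 at 0 DAD, 32.8, 74.7, 5.22, 4.20 and 26.9 at 10 DAD and 152, 225, 177, 148 and 158 at 13 DAD. The first 2 times overlapped and the libraries at 13 DAD were the highest. RHL41 and AOX1D were both lowest among the 5 water-treated libraries at 0 DAD in replicates 2 and 4, and both lowest among the 5 ethanol-treated libraries at 0 DAD in replicate 1. The members PCR2, UCC2 and AT4G20860 were lowest in the same libraries. In contrast, EXLA1, EXLA2, LP1 and AGP12 were highest in water-treated replicate 4 and in ethanol-treated replicate 1 at 0 DAD. Several members thus shared differences between libraries. BLH6, a homeodomain protein, was not called (-0.72 ± 0.19 (SE); edgeR, adjusted p = 0.00346).

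All 4 members of no common role were called lower, with a median log2 fold change of -2.32. ZW9, of the TRAF-like family, had 111, 129, 123, 90.6 and 93.3 normalized counts at 10 DAD and 575, 731, 683, 624 and 701 at 0 DAD in ethanol-treated plants (log2 fold change, -2.58 ± 0.12 (SE); edgeR, adjusted p = 1.1e-12). AT3G07350, of the DUF506 family, had 9.03, 10.4, 14.4, 17.1 and 2.33 at 10 DAD and 90.2, 79.7, 71.1, 49.6 and 97.8 at 0 DAD (-2.82 ± 0.31 (SE); edgeR, adjusted p = 2.14e-07). Neither gene overlapped between the times. PGL1, a 6-phosphogluconolactonase of the oxidative pentose phosphate pathway, and AT3G51870, a mitochondrial carrier, had log2 fold changes of -2.06 ± 0.25 (SE) and -1.58 ± 0.32 (SE), also without overlap.

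The 14 genes of translation, RNA and chromatin had the smallest median fall of the 6 sets by role. Of these, 7 were called lower at 10 DAD in ethanol-treated plants, the median log2 fold change was -1.0, and the range was -2.11 to -0.62. PDE340, a P-loop nucleoside triphosphatase, had the largest, with 20.1, 28.2, 23.01, 28.2 and 26.8 normalized counts at 10 DAD and 113, 83.5, 129.8, 127 and 104 at 0 DAD (log2 fold change, -2.11 ± 0.20 (SE); edgeR, adjusted p = 1.65e-08). AT2G21580, a protein of the small ribosomal subunit (S25 family), had 696, 582, 673, 616 and 673 at 10 DAD and 1727, 1672, 1575, 1463 and 1456 at 0 DAD, a tight pair of groups with a log2 fold change of -1.27 ± 0.09 (SE) (adjusted p = 2.7e-10, edgeR). AT4G02930, an elongation factor of the EF-Tu type, FKBP53, a histone chaperone of the nucleus, AT5G63550, a DEK chromatin protein, PMH1, a mitochondrial RNA helicase, and TK1b, a thymidine kinase, were called lower at -1.34, -1.33, -1.51, -1.13 and -1.04. The log2 fold changes of AT3G58660, AT3G57490, AT2G40290 and AT2G27775, a pentatricopeptide repeat protein, were -0.96, -0.72, -0.72 and -0.76, short of the threshold of -1. The smallest changes in this set were in emb1796 (a pentatricopeptide repeat protein needed for embryo development), AT5G48240 (a Rrp15p protein, known from yeast for its part in making the large ribosomal subunit) and AT4G26810 (a SWIB domain protein), at -0.72 ± 0.25 (SE), -0.63 ± 0.19 (SE) and -0.62 ± 0.26 (SE), and none of the 3 was called. Their adjusted p-values in edgeR were 0.022, 0.0108 and 0.0513.

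A second comparison that the rule did not use set ethanol-treated plants at 0 DAD against plants sampled before the pretreatment, 3 days earlier. It called 7 of the 46 members lower (15.2%) and 4 higher (8.7%) with edgeR. Of all 17084 genes tested, 2.15% were called lower and 1.77% higher. Of 1194 genes of the required level that fell in water-treated plants without the rise, 4.52% were called lower and 2.01% higher. Their median log2 fold change was -0.25, against -0.35 for the members. Of them, 32.4% lay below without overlap, against 32.6% of the members. Of the 43 genes left out by the condition at 13 DAD, 9.3% were called lower and 4.65% higher. Of the 7 members called lower, 6 were genes of translation, RNA and chromatin. All 14 genes of that role had a log2 fold change below 0, with a median of -0.95. AT3G58660, a ribosomal protein of the L1p/L10e family, had 99.995, 124, 109, 118 and 66.9 normalized counts in ethanol-treated plants at 0 DAD, against 283, 283, 287, 300.4 and 271 before the pretreatment (log2 fold change, -1.46 ± 0.14 (SE); edgeR, adjusted p = 2.85e-08). AT3G57490, a ribosomal protein of the S5 family, had 98.4, 81.2, 103, 69.8 and 61.9 in ethanol-treated plants at 0 DAD and 242, 224, 300.3, 263 and 231 before the pretreatment (-1.58 ± 0.14 (SE); edgeR, adjusted p = 1.58e-08). These groups lay far apart. AT3G51870, emb1796 and PMH1 were called lower at -1.31, -1.29 and -1.22, and PDE340 and TK1b at -1.13 and -1.07.

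Water-treated plants showed lower means as well. In water-treated plants at 0 DAD, 35 of the 46 members had a lower mean than before the pretreatment, among them all 14 of translation, RNA and chromatin, with a median difference of -0.87 log2 for the 14. The median difference was -0.34 log2 over the 46 members, against 0.0 over all genes of the required level. The rule used the water-treated plants at 0 DAD, so these values are a description with no test. AT3G58660 had 124, 129, 166, 134 and 164 normalized counts in water-treated plants at 0 DAD. The time between the samplings and the pretreatment cannot be told apart in this comparison.

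The 4 members called higher in ethanol-treated plants at 0 DAD than before the pretreatment were EXLA1, PGL1, UCC2 and BGLU46. Their means were also higher in water-treated plants at 0 DAD than before the pretreatment, by 0.93, 0.88, 1.72 and 1.175 log2. The rule used these water-treated plants, and the difference was not tested. UCC2 averaged 169.7 in water-treated and 141.2 in ethanol-treated plants at 0 DAD, and BGLU46 averaged 67.98 and 65.57. The means of EXLA1 and PGL1 were higher in ethanol-treated plants. EXLA1 averaged 189.3 in water-treated and 364.3 in ethanol-treated plants at 0 DAD, and PGL1 averaged 75.91 and 112.7. These differences between the treatments were not tested either. EXLA1 had 578, 342, 406, 195 and 301 normalized counts in ethanol-treated plants at 0 DAD and 70.9, 92.5, 89.6, 130.3 and 110.0 before the pretreatment (log2 fold change, 1.93 ± 0.27 (SE); edgeR, adjusted p = 0.000546). PGL1 had 116, 101, 114, 89.9 and 142 in ethanol-treated plants at 0 DAD and 51.4, 41.6, 37.8, 35.9 and 36.96 before it (1.47 ± 0.18 (SE); edgeR, adjusted p = 9.97e-07). Both were without overlap. UCC2 (1.46 ± 0.54 (SE); adjusted p = 0.0942, edgeR) and BGLU46, a beta-glucosidase known to act on monolignol glucosides (1.17 ± 0.42 (SE); adjusted p = 0.066), overlapped between the groups. Without replicate 1, 3, 4 or 5 of the plants before the pretreatment or replicate 2, 4 or 5 of the ethanol-treated plants, neither was called, and UCC2 was also lost without ethanol-treated replicate 3. Over all 10 fits with 1 library left out, the log2 fold change was 1.29 to 1.99 for UCC2 and 0.84 to 1.52 for BGLU46.

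At 13 DAD in water-treated plants, the members had returned to their level at 0 DAD in the median (0.08 log2), but not one by one. The difference between 13 and 0 DAD was within 0.5 log2 for 30 members, over 0.5 log2 above for 12 and over 0.5 log2 below for 4. The 4 that stayed lower were AT3G21460 (-1.54), PDE340 (-0.97), UCC2 (-0.76) and PCR2 (-0.72). The 6 that ended over 1 log2 above were Hsp70-2 (2.21), AOX1D (2.18), BETA-OHASE 2 (1.95), RHL41 (1.51), BLH6 (1.07) and ZW9 (1.06). None of these 6 was a wall and surface gene or a gene of translation, RNA and chromatin. By role, the median difference between 13 and 0 DAD was 0.03 for the wall and surface genes and -0.01 for the translation, RNA and chromatin genes, against 0.68 for the chaperones and genes of protein turnover and 0.49 for the iron, redox and detoxification genes. All these levels are normalized counts. The summed normalized counts of the 7 leaf and shoot marker genes ran from 11304 to 409263 over the 35 libraries. The part of such shifts in the members' levels was not tested.

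**Figure D4:**
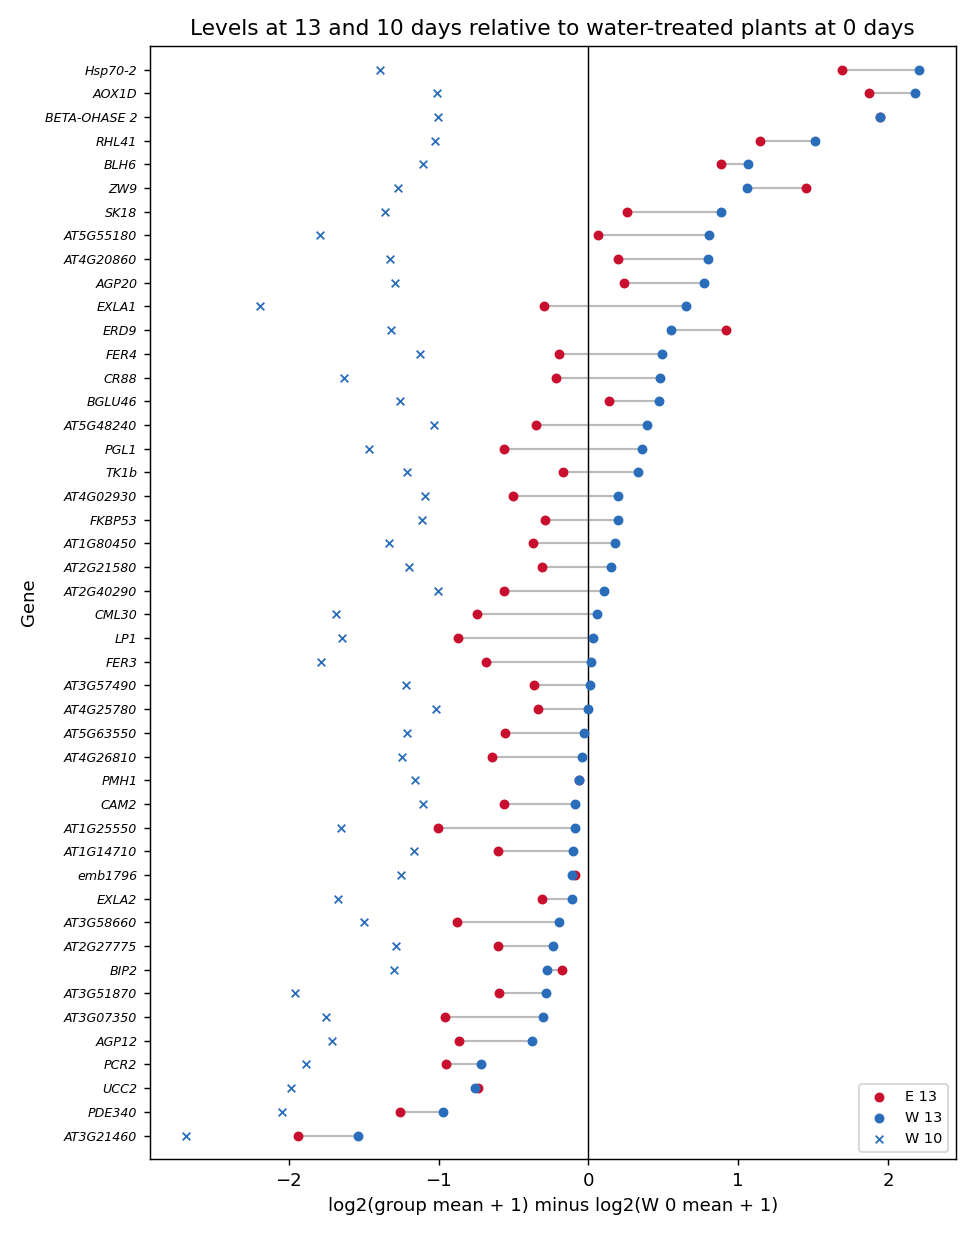
Group means of the 46 members relative to water-treated plants at 0 DAD on the log2(mean + 1) scale, ordered by the level in water-treated plants at 13 DAD (red points, ethanol-treated at 13 DAD; blue points, water-treated at 13 DAD; crosses, water-treated at 10 DAD). The blue points run from -1.54 in AT3G21460 to 2.21 in Hsp70-2, and the red point lies left of the blue one in 40 of 46 members. The rule required the rise by 13 DAD in water-treated plants only.

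At 13 DAD, 40 members had a lower mean in ethanol- than in water-treated plants and 6 a higher one, with a median difference of -0.50 log2 and a range of -0.95 to 0.40, against a median of 0.001 over all genes of the required level. These values were bounded by the rule at 1 log2 in each direction. The rule also required the rise by 13 DAD in water-treated plants only, which favours genes with a high water-treated mean there. The lower means in ethanol-treated plants may therefore follow from the rule in part. ZW9 had 899.7, 1561, 1508, 1570.3 and 1434 normalized counts in ethanol-treated plants at 13 DAD and 1127, 757, 993, 986 and 1439 in water-treated plants, the largest difference upward (0.40 log2). At 10 DAD the means of the treatments were within 0.5 log2 of each other for 38 members (median difference between ethanol- and water-treated plants, -0.05 log2). The members over 1 log2 apart there were CML30 (1.23), Hsp70-2 (1.06) and AT3G07350 (-1.37), the first 2 higher and the last lower in ethanol-treated plants. Between 13 and 10 DAD in ethanol-treated plants, the mean was higher at 13 DAD for 45 members, by at least 1 log2 for 26, with a median of 1.08, against -0.05 over all genes of the required level. All 5 libraries at 10 DAD lay below all 5 at 13 DAD for 22 members in ethanol-treated plants, or 47.8%, against 20.3% of all genes of the required level. The rule fixes this rise in part, since it required the rise in water-treated plants and a difference under 1 log2 between the treatments at 13 DAD. CML30 was the exception in direction, with 33.5 ± 3.20 (SD, n = 5) at 13 DAD and 41.2 ± 20.8 at 10 DAD.

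Promoter windows, taken as the 250 bases before and 50 bases after the annotated start in TAIR10.1, were available for all 46 members and for 11523 genes of the required level. Each motif was searched on both strands. The CGCG box was found in 12 members (26.1%), against 9.67% of all these windows, and the ABRE core in 13 (28.3%), against 13.7%. The G-box was found in 6 members (13.0% against 9.45%) and overlapped an ABRE core in 4 of them. Site II (TGGGCC), known from promoters of ribosomal protein genes, was found in 14 members (30.4% against 21.1%), of which 8 were among the 14 genes of translation, RNA and chromatin (57.1%). The telo-box (AAACCCTA), which occurs near the starts of many genes of translation, was found in 6 members (13.0% against 5.59%), and 5 of these were of the same role (35.7%). The evening element AAATATCT (6.52% against 6.58%), the heat shock element core GAANNTTC (10.9% against 11.2%) and the TATA box TATAAA (54.3% against 50.9%) had shares near those of all windows. The W-box letters TTGACC were in 6.52% of members against 13.7% of all windows, and TTGACT in 13.0% against 21.0%. The GCC box GCCGCC was in no member (2.68% of all windows). The other motifs searched were the DRE core CCGAC (15.2% against 16.8%), TCP site GGNCCC (10.9% against 10.5%), CCA1 site AAAAATCT (6.52% against 8.54%), sulfur-response core GAGAC (30.4% against 31.0%) and PHR1 site GNATATNC (8.70% against 6.19%). These shares are descriptions of letters in 1 window and were not tested.

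**Figure D5:**
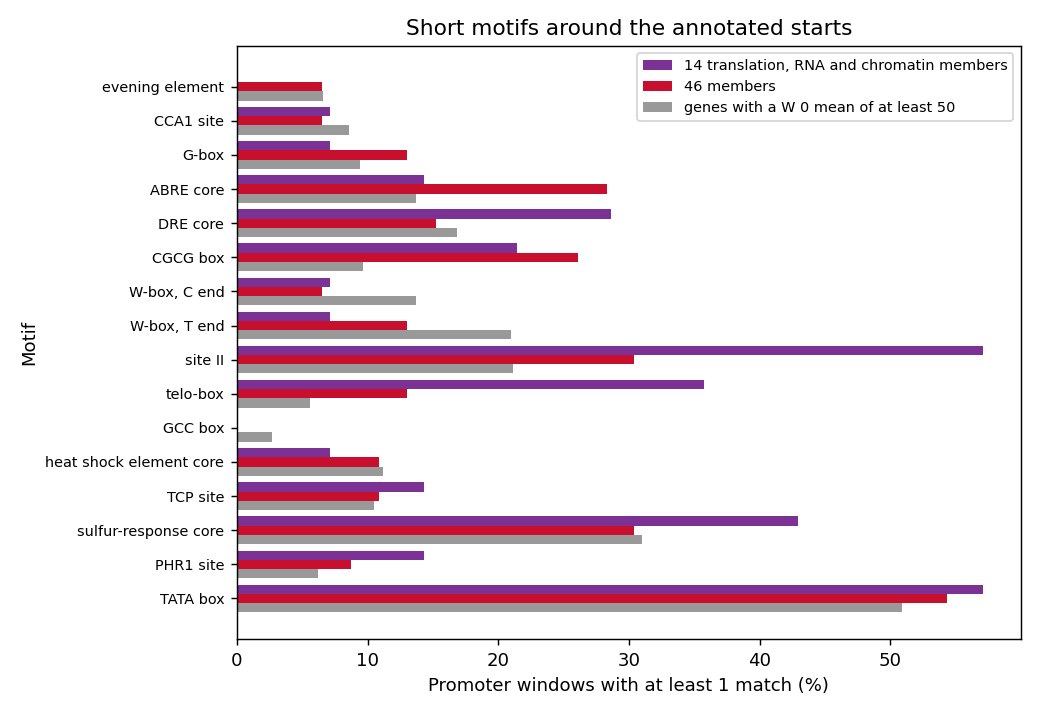
Share of promoter windows (300 bases around the annotated start) with at least 1 match to each of 16 short motifs, for the 14 translation, RNA and chromatin members (purple), all 46 members (red) and 11523 genes with a mean of at least 50 normalized counts in water-treated plants at 0 DAD (grey). Site II reaches 57.1% and the telo-box 35.7% in the purple bars, against 21.1% and 5.59% in the grey ones.

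The sequence upstream of AT3G58660 is shown because it holds 4 site II matches, in capitals below. No other member of translation, RNA and chromatin held as many in its window. It is printed as for FER3, and these matches begin at -149, -93, -67 and -49.
AT3G58660 (chr3:21701270-21701519, + strand): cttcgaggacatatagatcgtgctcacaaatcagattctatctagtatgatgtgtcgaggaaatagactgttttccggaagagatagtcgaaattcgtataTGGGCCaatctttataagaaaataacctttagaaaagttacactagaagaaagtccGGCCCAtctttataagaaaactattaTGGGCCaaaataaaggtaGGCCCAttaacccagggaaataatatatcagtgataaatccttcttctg
The upstream sequence of EXLA1, the member with the largest fall in ethanol-treated plants, holds a CGCG box at -134 that matches on both strands, in capitals.
EXLA1 (chr3:16895916-16896165, + strand): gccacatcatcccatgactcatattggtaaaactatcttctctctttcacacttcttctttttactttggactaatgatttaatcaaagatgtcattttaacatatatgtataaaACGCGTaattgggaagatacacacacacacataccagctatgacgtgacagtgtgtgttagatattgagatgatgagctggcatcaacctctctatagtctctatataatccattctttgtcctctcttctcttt
The 5 telo-boxes of translation, RNA and chromatin members are shown in 30 bases each, since all lie on the gene's own strand and begin 15 to 43 bases after the annotated start, with the telo-box in capitals.
AT3G58660 (chr3:21701523-21701552, + strand): ccttcctccttAAACCCTAatctctgtact
AT2G21580 (chr2:9236500-9236529, + strand): gagagactcagAAACCCTAatatataaata
AT5G48240 (chr5:19559220-19559249, + strand): aagcaataacaAAACCCTAtctctcgtctc
PMH1 (chr3:7887296-7887325, + strand): gccgtctccctaAAACCCTAattctcattt
emb1796 (chr3:18255981-18256010, + strand): catcatcatctccaaactcctaAAACCCTA
The boxes begin at 15 in AT3G58660, 31 in AT2G21580, 31 in AT5G48240, 33 in PMH1 and 43 in emb1796.

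Other genes, of the same and of other processes, were read from 21 lists made by symbol, of which 19 held no member. Of 11 cell wall loosening genes tested, 8 were called lower and 1 higher at 10 DAD in ethanol-treated plants (median log2 fold change, -1.66), and none was a member. Of 10 cuticular wax and lipid transfer genes, 6 were called lower and 2 higher (median, -1.56), with LP1 the only member. Of 9 nucleolar ribosome biogenesis genes, 4 were called lower and 0 higher by edgeR (0 also higher at an unadjusted p under 0.05; median, -0.87), and 4 of 9 were also called lower at 0 DAD in ethanol-treated plants than before the pretreatment (median, -0.78), again with no member. Of 15 touch, wound and other rapid-response genes, 4 were called lower and 1 higher (median, -0.21), and RHL41 was the only member. Of 4 heat shock genes tested, 0 were called lower or higher by edgeR, with a median of 0.60 (3 were higher and 0 lower at an unadjusted p under 0.05, and DESeq2 called 1 lower and 0 higher). Of 5 iron-deficiency genes, 0 were called in either direction by edgeR or DESeq2 or had an unadjusted p under 0.05 (median, -0.15). The other 15 lists had medians below 0 in 7 and above 0 in 8, which ran from -2.37 in cell cycle genes to 1.14 in sulfur-response and assimilation genes.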

How the data were processed

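RNA of Col-0 shoots was sequenced by the authors with Lasy-Seq in 35 libraries, 5 for each of 7 groups taken from the sample labels. The paper's methods give Trimmomatic, HISAT2 on TAIR10 and featureCounts with strand. Its settings give a read to every gene that covers at least a set fraction of the read. The labels name the RNeasy Plant Mini Kit and the paper the mirVana kit for RNA, and 9 or 10 days on MS medium, which does not change the groups. The authors deposited raw counts of 27417 genes and normalized counts, a signal in which each library's raw counts are divided by its own single factor. Totals of 3589540 to 13440389 counts limit genes with few reads.

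Members were found from the deposited normalized counts by the stated rule. The members, their roles and the 21 gene lists (241 of 252 symbols found) were chosen with earlier results of these data known. The 2 contrasts that the rule did not use were each tested on their own 10 libraries of raw counts with R 4.3.3 and edgeR 4.0.16 (TMM, filterByExpr, robust quasi-likelihood F-test, Benjamini-Hochberg adjustment over all genes tested). A call needed an adjusted p under 0.1 and an absolute log2 fold change of 1 or more. Standard errors were derived from the fold change and its F statistic. P-values set the difference between 2 groups against the spread between these libraries only. The procedure was tested on simulated data.

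The genes named with values were the 15 deepest dips, the 10 largest falls called without overlap in ethanol-treated plants, the 5 changes closest to 0 there, up to 5 per direction called against plants before the pretreatment, members of the lists, and the genes next to each threshold. The values of other members, printed beside these or for their roles, were chosen after they were seen. Of the 27417 IDs, 26720 matched the RefSeq annotation of TAIR10.1, which gave names, positions and sequences. Copies were searched with BLAST 2.17.0 (95% identity over 100 bp).

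Alternatives to the tests were DESeq2 1.42.0, RLE factors or plain library sizes, filters at 1 count or at a mean of 20 counts, a joint fit of the 7 groups, the replicate number as a block, non-robust dispersion, an FDR under 0.05 and each library left out in turn, and for membership other pseudocounts, scalings, thresholds and libraries.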

Additional observations from a re-analysis of the deposited data

Results flagged for a closer look

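Of 322 sets of 5 libraries (46 members in 7 groups), 19 held a library far from the other 4, where chance gives about 1 in 20. They were spread over 14 libraries, with at most 2 in any. Smaller shifts that several members share within a library, as given with RHL41, are not seen this way.

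In the group before the pretreatment, UCC2 had 106.9 normalized counts in replicate 2 (others, 28.98 to 45.3), and replicate 4 had 302.3 in AT5G63550 (others, 133 to 173) and 631.0 in FKBP53 (others, 333 to 415). In ethanol-treated plants at 0 DAD, replicate 1 had 97.5 in CML30 (others, 38.5 to 54.9) and 109.0 in EXLA2 (others, 51.8 to 67.9). In water-treated plants at 0 DAD, replicate 2 had 220.3 in AT3G21460 (others, 163.5 to 176.8) and 266.6 in CAM2 (others, 359.7 to 397.4), replicate 4 had 344.3 in EXLA1 (others, 123.9 to 166.4), and replicate 5 had 87.5 in Hsp70-2 (others, 46.5 to 54.7).

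In ethanol-treated plants at 10 DAD, FER3 had 290.0 in replicate 1 (others, 147.0 to 187.0) and AT4G02930 had 82.9 in replicate 4 (others, 108.4 to 114.3). In water-treated plants at 10 DAD, AGP20 had 67.3 in replicate 5 (others, 118.5 to 133.6). In ethanol-treated plants at 13 DAD, ZW9 had 899.7 in replicate 1 (others, 1433.5 to 1570.3) and BETA-OHASE 2 had 371.5 in replicate 3 (others, 163.1 to 196.7). In water-treated plants at 13 DAD, replicate 1 had 823.4 in CR88 (others, 643.3 to 687.5) and 71.0 in AT4G26810 (others, 46.3 to 51.8), replicate 2 had 433.4 in AT4G20860 (others, 244.4 to 294.8) and 199.7 in AT5G63550 (others, 99.9 to 125.4), and replicate 4 had 112.7 in EXLA2 (others, 22.7 to 40.9).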

How the results depend on the processing

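Membership moved most with the thresholds. The rule gave 120 genes with a fall and rise of at least 0.8 log2 and 25 with 1.2 log2, 83 with a mean of at least 20 normalized counts at 0 DAD and 29 with 100, and 89 with no condition on ethanol-treated plants at 13 DAD. It gave 51 with a pseudocount of 0.1, 37 with 5, 44 with TMM-scaled counts, 51 with means of log2 values, and 41 to 66 with 1 library left out, so that the 46 genes are a choice among many near the thresholds.

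In ethanol-treated plants at 10 against 0 DAD, the count of members called lower was 23 to 32 over all alternatives (28 to 32 with 1 library left out), and all 46 log2 fold changes were below 0 in each of the 18 other fits. With library size only, the median of the members was -0.99 (23 called lower), and the median of all genes moved to 0.24, so that their distance hardly moved. FER3, SK18 and CR88 were among the members no longer called there. The count of members higher in ethanol-treated plants at 0 DAD than before the pretreatment was 2 to 4 with 1 library left out, 2 with genes of at least 1 count and 2 at an FDR under 0.05, where UCC2 and BGLU46 had adjusted p of 0.0942 and 0.066 in edgeR, and the count of members lower was 6 to 8.

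Replicate numbers in the labels did not pair the libraries, since the correlations of same-numbered deviations were -0.10 to 0.22 between 10 and 0 DAD and -0.07 to 0.21 between 0 DAD and before the pretreatment. With the replicate number as a block, 31 members were called lower and 0 higher in the first comparison and 7 and 4 in the second, and no count moved by over 1.5 times.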
